A study of Rattus norvegicus with 9 samples.

Results

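Type I interferon response genes were followed in cultured smooth muscle cells isolated from rat aorta, which make up the muscular layer of the vessel and set its tone by contracting. The members were 41 listed gene symbols, and 40 of them had a row among the 32623 genes of the deposited table. Samd9l, a restriction factor gene, was not analysed here. Libraries came from 3 groups of 3, all of wild-type cells at passages 4 to 8. The PDGF-BB+PTUPB cells were given 0.5 µM PTUPB 2 h before PDGF-BB. The PDGF-BB cells received PDGF-BB for 24 h, at 10 ng/mL in the sample labels and 20 ng/mL in the design text, and the Control cells received DMSO. All cells had been grown in 20% serum, had spent 12 h without serum and were treated in 2% serum. PDGF-BB is a dimeric growth factor that drives smooth muscle cells to divide and migrate. PTUPB inhibits both cyclooxygenase-2 and soluble epoxide hydrolase, which act on arachidonic acid and its epoxides. PTUPB was always combined with PDGF-BB, so its effect alone was not analysed here. The labels do not say whether replicates came from separate cultures or animals, so p-values measure only the spread between libraries, which may be technical.

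Type I interferons are secreted when sensors such as the RIG-I-like receptors detect foreign or misplaced nucleic acid. They bind the receptor Ifnar1/Ifnar2, whose kinases Jak1 and Tyk2 phosphorylate Stat2. Stat2 acts with Irf9 in the complex ISGF3, which binds a DNA element called the ISRE in front of its targets. The targets include antiviral effectors, the sensors themselves, and Irf7, a factor that amplifies interferon production. Smooth muscle cells carry the receptor and respond to interferon.

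Counts summed to between 12729187 and 16911050 per library. A gene with 3 counts is at 0.177 to 0.236 CPM, depending on the library, CPM being the count scaled to library size. Levels are TMM-scaled CPM unless FPKM, which also divides by gene length, is named. Smooth muscle markers were abundant in all groups, at summed levels of 2992 to 3329 CPM in PDGF-BB+PTUPB, 2838 to 3333 CPM in PDGF-BB and 2389 to 3373 CPM in Control libraries. Summed adventitial fibroblast markers, given below, were higher than these in PDGF-BB+PTUPB and Control libraries and overlapped them in PDGF-BB libraries. Of 6 tested smooth muscle markers, Acta2, Myh11 and Lmod1 were lower with PDGF-BB and Myh11 was higher with PTUPB. Among all genes tested, 15.8% were lower with PDGF-BB and 8.28% higher with PTUPB. The part of the smooth muscle markers in the interferon result was not tested. Of the 9 libraries 2 stood apart from the others on the second principal component, which held 14.2% of the variance: PDGF-BB replicate 3 at 22.9 and Control replicate 2 at 17.7, while no other library exceeded -0.61. In both, longer genes read lower (Spearman correlation of deviation with length across genes -0.384 and -0.396), while trends of opposite sign and similar size were present in PDGF-BB replicate 2 (0.361) and Control replicate 1 (0.358). Each deviation was taken from the mean of the other libraries of the group. A trend in 1 library therefore pushes the others of its group the opposite way, and the opposite trends are not separate observations. Member calls that turn on either library are named below.

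Antiviral effectors, their regulators and Cxcl10 were among the genes that rose with PDGF-BB and that were lower when PTUPB was added. Of the 34 members tested, 20 were higher and 1 was lower in PDGF-BB than in Control libraries (edgeR quasi-likelihood test, adjusted p under 0.05 over 11197 genes). Over all genes tested 17.3% were higher and 15.8% lower. With PDGF-BB+PTUPB against PDGF-BB, 0 of the 34 were higher and 15 were lower, against 8.28% and 10.0% of all genes. The median log2 fold change of the tested members was 0.41 for PDGF-BB against Control, beside -0.02 over all genes, and -0.39 for PDGF-BB+PTUPB against PDGF-BB, beside 0.01 over all genes. The members were chosen with earlier results of these data known, so their counts and medians are not independent evidence of direction.

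Both comparisons use the same PDGF-BB libraries, so a deviation of those libraries moves both results, in opposite directions. Groups that did not overlap were counted too: 21 members were higher and 2 lower with PDGF-BB (22.6% and 22.0% of all genes), and 1 was higher and 20 were lower with PTUPB (20.0% and 20.7%). A gene was tested where 3 or more libraries reached an FPKM of 1, and Mx2, Oas1a, Rsad2 and Cmpk2 met this through the PDGF-BB libraries alone, which favours a difference by construction. When the filter used the mean over all libraries instead, 18 members were higher and 1 lower with PDGF-BB, and 13 were lower and 0 higher with PTUPB. Scaling by library totals in place of TMM changed the share of all calls that were higher to 64.1% against 52.3% for PDGF-BB, and to 35.0% against 45.3% for PTUPB. It gave 21 members higher with PDGF-BB and 17 lower with PTUPB.

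**Figure D1:**
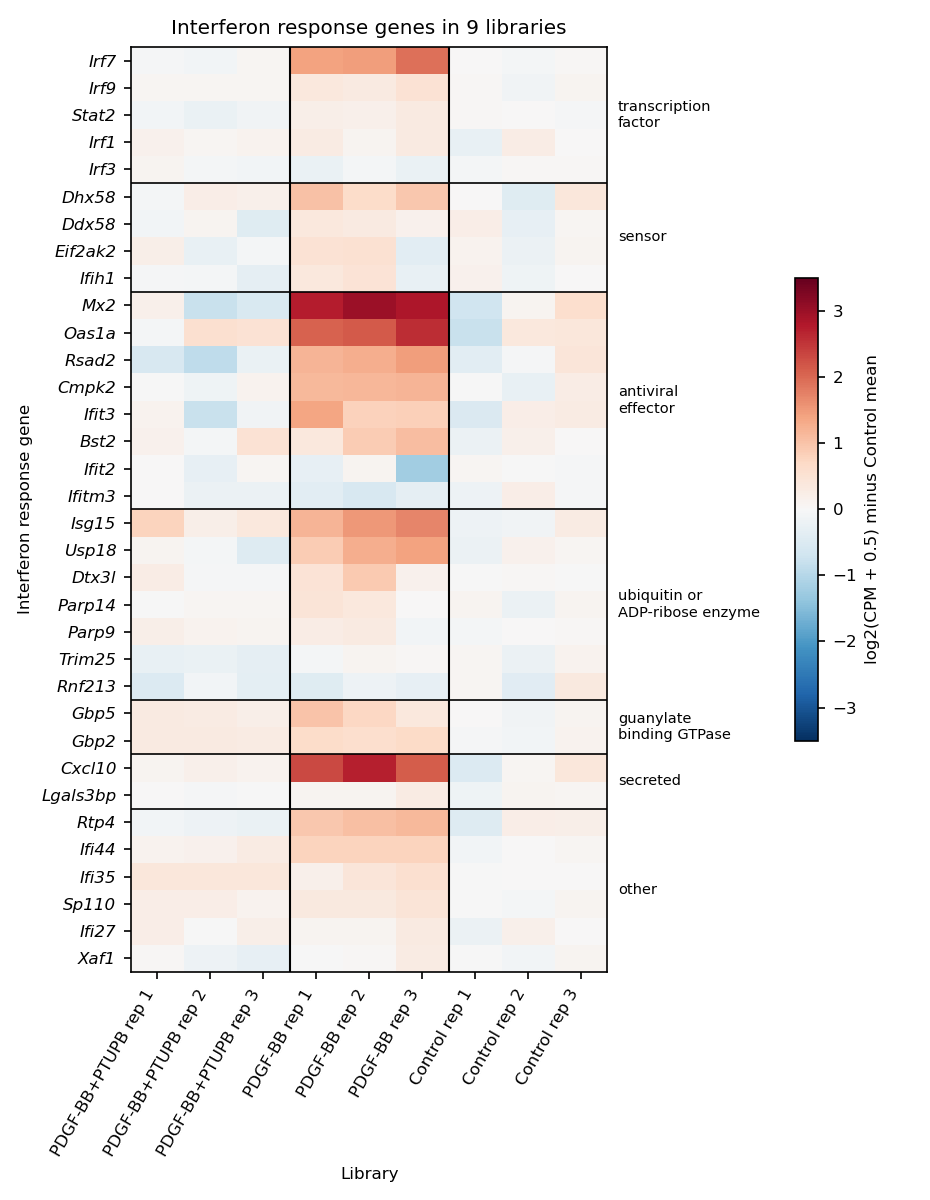
Each row is one of the 34 tested interferon response genes and each column a library (PDGF-BB+PTUPB, PDGF-BB, Control, left to right), coloured by log2(CPM + 0.5) minus the mean of the 3 Control libraries. Red fills the 3 PDGF-BB columns for Irf7, Mx2, Oas1a and Cxcl10, whereas Irf3, Trim25 and Ifi27 stay pale.

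Of the 5 transcription factor genes, Irf7, Irf9 and Stat2 rose with PDGF-BB and were lower again with PTUPB. All-gene shares were 17.3% higher with PDGF-BB and 10.0% lower with PTUPB. Irf7, the amplifier of the response, had 8.79, 8.35 and 9.39 CPM in PDGF-BB+PTUPB libraries, 24.5, 25.6 and 35.4 CPM in PDGF-BB libraries and 9.04, 8.62 and 9.28 CPM in Control libraries. All 3 PDGF-BB libraries lay far above the other 6, whose values interleave. Irf7 rose 3.17-fold with PDGF-BB (log2 fold change 1.67 ± 0.15 SE, edgeR adjusted p = 3.69e-05) and was 3.22-fold lower with PTUPB (-1.69 ± 0.15, adjusted p = 0.000562). Irf7 was the only member with deposited counts that were not whole numbers.

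The changes of Irf9 and Stat2, which act in ISGF3, were much smaller. Irf9, the DNA-binding subunit, had 23.1, 23.1 and 23.1 CPM in PDGF-BB+PTUPB libraries, 28.6, 27.1 and 31.3 CPM in PDGF-BB libraries and 22.3, 19.9 and 23.5 CPM in Control libraries. Every PDGF-BB library exceeded every other one. Irf9 rose with PDGF-BB (0.40 ± 0.09, edgeR adjusted p = 0.008) and fell with PTUPB (-0.33 ± 0.09, adjusted p = 0.0354). The fall was not called without any one of the PDGF-BB+PTUPB libraries, PDGF-BB replicate 1 or PDGF-BB replicate 3 (adjusted p 0.0785 to 0.108). Stat2, the transactivating subunit, had 54.7, 49.5 and 53.5 CPM in PDGF-BB+PTUPB libraries, 67.1, 66.8 and 72.9 CPM in PDGF-BB libraries and 59.8, 59.0 and 56.7 CPM in Control libraries. The PDGF-BB values were again the 3 highest and the PDGF-BB+PTUPB values the 3 lowest. Stat2 fell with PTUPB (-0.39 ± 0.08, edgeR adjusted p = 0.00772). Its rise with PDGF-BB (0.24 ± 0.08, adjusted p = 0.0386) was not called without any one of 8 libraries, all but PDGF-BB replicate 2 (adjusted p 0.0521 to 0.12).

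Irf1 and Irf3 did not pass the test. Irf1, an early interferon- and cytokine-induced factor, had 39.5, 37.7 and 38.9 CPM with PDGF-BB+PTUPB, 43.7, 38.1 and 44.4 CPM with PDGF-BB and 29.9, 42.6 and 36 CPM in Control libraries. The groups overlapped (0.22 ± 0.12 for PDGF-BB against Control, edgeR adjusted p = 0.202). Without Control replicate 2, the highest Control value, the adjusted p was 0.0324. Irf3, which sensors activate by phosphorylation without new synthesis, had 52.8, 46.6 and 46.0 CPM with PDGF-BB+PTUPB, 41.7, 46.5 and 41.6 CPM with PDGF-BB and 47.0, 50.3 and 50.2 CPM in Control libraries. The PDGF-BB values lay just under the Control values, and the difference was -0.18 ± 0.09 (edgeR adjusted p = 0.133).

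The promoter window of Irf7 (RefSeq, rat build GRCr8, 250 bases before to 50 after the transcript start, 300 in all) is shown because this factor gene carried the most significant change of the list. Capitals mark a match to the ISRE, searched as the letters GAAA, any 2 bases and GAAA again, here on the opposite strand.
Irf7 chr1:205799974-205800273 minus strand: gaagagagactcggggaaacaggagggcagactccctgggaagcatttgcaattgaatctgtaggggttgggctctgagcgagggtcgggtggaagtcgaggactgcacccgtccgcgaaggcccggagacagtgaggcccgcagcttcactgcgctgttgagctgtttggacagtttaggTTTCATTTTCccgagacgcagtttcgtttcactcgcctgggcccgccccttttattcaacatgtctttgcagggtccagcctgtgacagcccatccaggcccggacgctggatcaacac

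Among the sensors, Dhx58 changed and the other 3 tested genes did not pass. The sensor share was 25.0% in each comparison, where 17.3% of all genes were higher with PDGF-BB and 10.0% lower with PTUPB. With 1 gene called, this gives no result for the class. Dhx58 (LGP2), a RIG-I-like helicase without signalling domains that tunes the others, had 1.82, 2.34 and 2.22 CPM with PDGF-BB+PTUPB, 4.46, 3.27 and 4.15 CPM with PDGF-BB and 1.94, 1.31 and 2.72 CPM in Control libraries. All PDGF-BB values exceeded the rest. It rose 1.99-fold with PDGF-BB (1.00 ± 0.28, edgeR adjusted p = 0.0198), a call lost without PDGF-BB replicate 1 (0.0643) or Control replicate 1 (0.0541). It was lower with PTUPB (-0.89 ± 0.28, adjusted p = 0.0489), a call lost without any of 7 libraries (0.0525 to 0.156), all but Control replicates 2 and 3.

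Ddx58 encodes RIG-I, the cytosolic sensor of 5′-triphosphate RNA. It had 10.8, 12.3 and 8.51 CPM with PDGF-BB+PTUPB, 15.1, 14.5 and 13.0 CPM with PDGF-BB and 13.6, 9.33 and 12.1 CPM in Control libraries. The PDGF-BB values lay above the PDGF-BB+PTUPB values and overlapped the Control values, and neither change passed (0.29 ± 0.17, edgeR adjusted p = 0.226, with PDGF-BB and -0.43 ± 0.17, adjusted p = 0.115, with PTUPB).

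Ifih1 and Eif2ak2 were split by 1 library. Ifih1 (MDA5), which detects long double-stranded RNA, had 14.4, 14.2 and 12.0 CPM with PDGF-BB+PTUPB, 19.4, 21.1 and 12.4 CPM with PDGF-BB and 16.5, 13.3 and 15.1 CPM in Control libraries. Eif2ak2 (PKR), the kinase that stops translation on double-stranded RNA, had 61.9, 44.2 and 50.5 CPM with PDGF-BB+PTUPB, 75.5, 78.2 and 41.6 CPM with PDGF-BB and 58.2, 46.1 and 56.6 CPM in Control libraries. In both genes PDGF-BB replicate 3 read below the other PDGF-BB libraries and within or under the other groups. With all libraries neither gene was called, at edgeR adjusted p = 0.348 and 0.353 for PDGF-BB and 0.191 and 0.355 for PTUPB. Without PDGF-BB replicate 3 both were called higher with PDGF-BB (0.0271 and 0.0211) and lower with PTUPB (0.0153 and 0.0273).

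Zbp1, a sensor of Z-form nucleic acid that triggers cell death, had 3 counts over the PDGF-BB+PTUPB group, 4 over the PDGF-BB group and 2 over the Control group, too few to test. The Ifih1 window (RefSeq, GRCr8) is shown as that of a sensor gene that holds an ISRE (capitals) but was not called.
Ifih1 chr3:67683919-67684218 minus strand: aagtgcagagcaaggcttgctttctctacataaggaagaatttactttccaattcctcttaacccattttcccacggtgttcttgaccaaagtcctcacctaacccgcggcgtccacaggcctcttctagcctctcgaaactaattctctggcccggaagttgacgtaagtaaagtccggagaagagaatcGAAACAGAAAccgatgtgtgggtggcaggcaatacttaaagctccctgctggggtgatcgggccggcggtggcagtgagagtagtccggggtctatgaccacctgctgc

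Among tested members, antiviral effectors held the largest changes of the list. Of the 8 tested, Mx2, Oas1a, Rsad2, Cmpk2, Ifit3 and Bst2 rose with PDGF-BB, Ifitm3 fell and Ifit2 was not called. With PTUPB, Mx2, Oas1a, Rsad2, Cmpk2 and Ifit3 were lower. Of all genes tested, 17.3% were higher and 15.8% lower with PDGF-BB, and 10.0% were lower with PTUPB. Mx2, Oas1a, Rsad2 and Cmpk2 entered the test through the PDGF-BB libraries alone, which favours a difference by construction. Mx1, Oasl, Oas2 and Ifit1 did not pass the filter.

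Mx2, a dynamin-like GTPase that traps viral nucleocapsids, had 1.67, 0.601 and 0.814 CPM in PDGF-BB+PTUPB libraries, 12.4, 14.8 and 13.0 CPM in PDGF-BB libraries and 0.672, 1.55 and 2.39 CPM in Control libraries. No PDGF-BB library came near the other 6. Mx2 rose 8.60-fold with PDGF-BB (3.10 ± 0.38, edgeR adjusted p = 0.000237) and was 13.1-fold lower with PTUPB (-3.71 ± 0.41, adjusted p = 0.00067). The closely related Mx1 was at most 34 counts in any library, and reads shared by the pair may have been assigned to either.

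Oas1a, one of a cluster of 2′-5′ oligoadenylate synthetases that switch on RNase L, had 0.436, 0.962 and 0.888 CPM with PDGF-BB+PTUPB, 3.61, 3.86 and 5.43 CPM with PDGF-BB and 0.0747, 0.773 and 0.795 CPM in Control libraries. The lowest Control value is 1 count. The PDGF-BB libraries stood clear of the others, with a rise of 2.91 ± 0.49 (edgeR adjusted p = 0.00155) and a fall of 2.47 ± 0.48 with PTUPB (adjusted p = 0.00677) on the log2 scale. Reads of the closely related Oas1 copies cannot be told apart with certainty.

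Rsad2 (viperin) makes a chain-terminating nucleotide, and Cmpk2 is a nucleotide kinase encoded next to it on chromosome 6. Rsad2 had 0.727, 0.481 and 1.04 CPM with PDGF-BB+PTUPB, 3.61, 3.86 and 4.53 CPM with PDGF-BB and 0.896, 1.25 and 1.92 CPM in Control libraries. Cmpk2 had 2.91, 2.58 and 3.25 CPM with PDGF-BB+PTUPB, 7, 7.14 and 7.32 CPM with PDGF-BB and 2.91, 2.38 and 3.65 CPM in Control libraries. In both genes every PDGF-BB value exceeded every other value. Rsad2 rose by 1.55 ± 0.32 (edgeR adjusted p = 0.0043) with PDGF-BB and fell by 2.43 ± 0.34 (adjusted p = 0.00199) with PTUPB. Cmpk2 rose by 1.26 ± 0.19 (edgeR adjusted p = 0.000907) and fell by 1.30 ± 0.20 (adjusted p = 0.00247).

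Ifit3 belongs to a family of tetratricopeptide proteins that hold back RNA with foreign caps. It had 2.04, 0.841 and 1.63 CPM with PDGF-BB+PTUPB, 5.54, 3.57 and 3.62 CPM with PDGF-BB and 1.12, 2.20 and 2.32 CPM in Control libraries. The PDGF-BB values were the 3 highest, led by replicate 1. Its rise of 1.16 ± 0.36 (edgeR adjusted p = 0.0313) was lost without PDGF-BB replicate 1 (0.112) or Control replicate 1 (0.0951). Its fall of 1.51 ± 0.37 with PTUPB (adjusted p = 0.0193) was lost without replicate 2 or 3 of PDGF-BB+PTUPB or the first PDGF-BB library (0.0532 to 0.0688).

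Ifit2, of the same family, was more abundant and was not called, with 52.5, 42.9 and 54.7 CPM with PDGF-BB+PTUPB, 42.8, 55.7 and 22.3 CPM with PDGF-BB and 55, 51.7 and 50.6 CPM in Control libraries. The PDGF-BB libraries alone spanned the range of all the others (-0.38 ± 0.25 against Control, edgeR adjusted p = 0.276). Ifit1 had 2 counts in 1 Control library and 0 in the other 8.

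The membrane factors differed from each other. Bst2 (tetherin), which holds budding virus on the cell surface, had 4.80, 4.09 and 6.29 CPM with PDGF-BB+PTUPB, 5.69, 8.32 and 9.58 CPM with PDGF-BB and 3.66, 4.93 and 4.31 CPM in Control libraries. It rose with PDGF-BB (0.87 ± 0.24, edgeR adjusted p = 0.0181), a call lost without PDGF-BB replicate 3, Control replicate 1 or Control replicate 3 (0.0543 to 0.0625). Against PDGF-BB the PDGF-BB+PTUPB libraries overlapped (-0.64 ± 0.24, adjusted p = 0.0862), and without PDGF-BB replicate 1 the adjusted p was 0.0415. Ifitm3, which blocks viral fusion in endosomes, was by FPKM the most abundant member in every group. It had 431, 374 and 373 CPM with PDGF-BB+PTUPB, 329, 293 and 343 CPM with PDGF-BB and 377, 500 and 418 CPM in Control libraries. It fell with PDGF-BB (-0.42 ± 0.11, edgeR adjusted p = 0.016), a call lost without PDGF-BB replicate 2 (0.0586). With PTUPB it was not called (0.29 ± 0.11, adjusted p = 0.107), but passed without Control replicate 2 (0.0441). Its near copy Ifitm2, which may share reads, was not called with PDGF-BB (-0.33 ± 0.13, adjusted p = 0.0832), and passed without PDGF-BB replicate 3 (0.0471) or Control replicate 1 (0.0173).

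The Oas1a and Ifit3 windows (RefSeq, GRCr8) are shown because their ISRE matches (capitals) have the same core on opposite strands, and that of Oas1a is a run of 2 overlapping matches.
Oas1a chr12:41330216-41330515 plus strand: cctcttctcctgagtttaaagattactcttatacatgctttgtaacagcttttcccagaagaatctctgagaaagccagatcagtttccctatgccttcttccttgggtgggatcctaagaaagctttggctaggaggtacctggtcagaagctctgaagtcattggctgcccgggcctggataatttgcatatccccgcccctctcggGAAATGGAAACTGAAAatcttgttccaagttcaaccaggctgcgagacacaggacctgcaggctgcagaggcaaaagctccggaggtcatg
Ifit3 chr1:241527076-241527375 plus strand: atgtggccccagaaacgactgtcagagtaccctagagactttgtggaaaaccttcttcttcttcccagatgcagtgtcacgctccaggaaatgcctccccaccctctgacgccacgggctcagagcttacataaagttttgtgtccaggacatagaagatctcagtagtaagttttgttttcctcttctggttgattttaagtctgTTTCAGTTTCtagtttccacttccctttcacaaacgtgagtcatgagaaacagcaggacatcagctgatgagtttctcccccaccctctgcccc

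**Figure D2:**
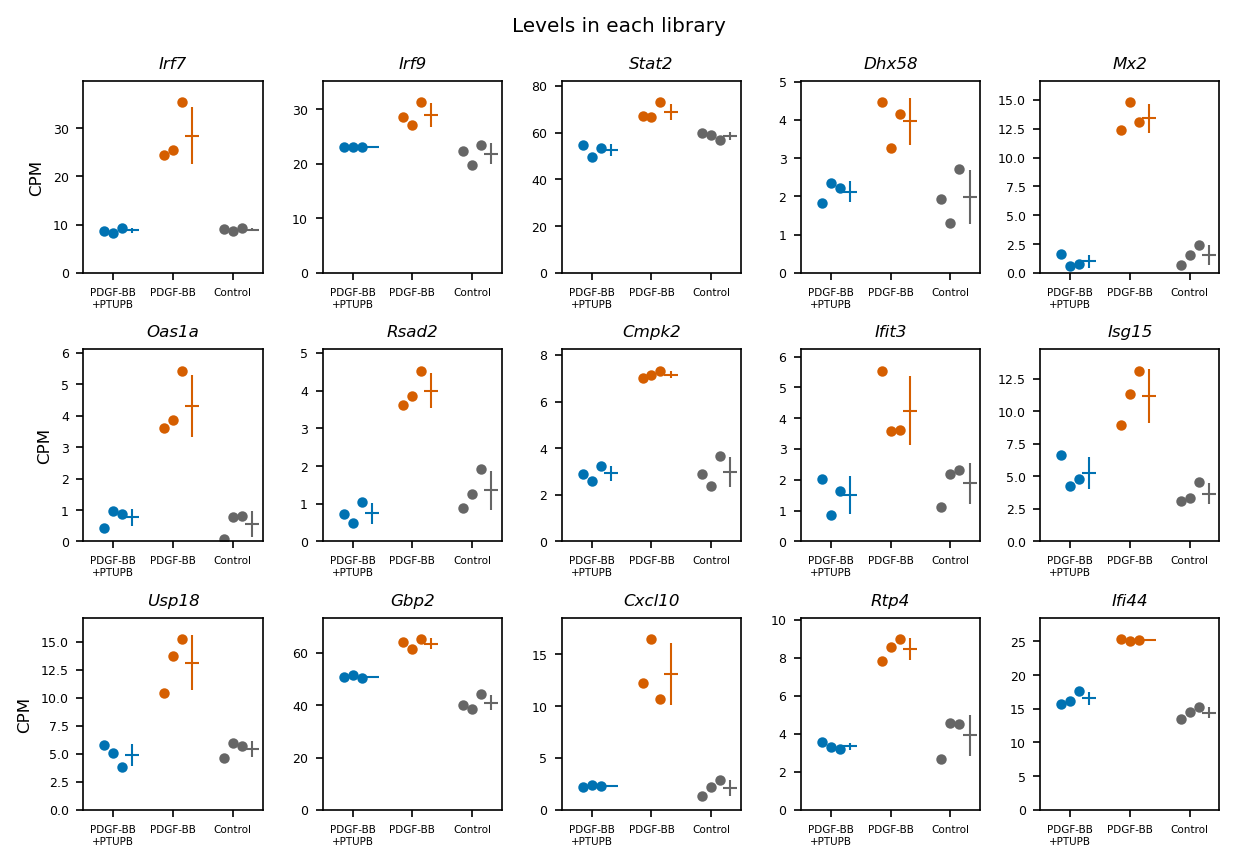
Each panel shows TMM-scaled CPM (axis from 0) of one of the 15 genes called in both comparisons, with a point per library and, beside it, the mean and SD of the 3 libraries. In each of the 15 panels the 3 PDGF-BB points lie above the 6 others. The genes were picked by calls that both use the PDGF-BB libraries, so the selection itself favours this separation.

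In the ubiquitin-like and ADP-ribose group, Isg15, Usp18 and Dtx3l rose with PDGF-BB, 3 of 7 tested, and Isg15 and Usp18 were lower with PTUPB. The shares over all genes were 17.3% higher with PDGF-BB and 10.0% lower with PTUPB. Isg15, a ubiquitin-like protein attached to other proteins, had 6.61, 4.27 and 4.81 CPM with PDGF-BB+PTUPB, 8.99, 11.4 and 13.1 CPM with PDGF-BB and 3.14, 3.33 and 4.57 CPM in Control libraries. PDGF-BB libraries were the 3 highest, and PDGF-BB+PTUPB libraries lay at or above most Control values. It rose 3.03-fold (1.60 ± 0.23, edgeR adjusted p = 0.000571) with PDGF-BB and was 2.14-fold lower with PTUPB (-1.10 ± 0.22, adjusted p = 0.0086). Usp18, the protease that removes Isg15 and also damps receptor signalling, had 5.81, 5.11 and 3.85 CPM with PDGF-BB+PTUPB, 10.5, 13.7 and 15.2 CPM with PDGF-BB and 4.63, 6 and 5.70 CPM in Control libraries. It rose by 1.27 ± 0.20 (edgeR adjusted p = 0.000971) and fell by 1.41 ± 0.20 with PTUPB (adjusted p = 0.00199), with no overlap of PDGF-BB with either group.

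Dtx3l, a ubiquitin ligase that partners Parp9, rose with PDGF-BB (0.58 ± 0.20, edgeR adjusted p = 0.0466), with 10.6, 14.7 and 8.30 CPM against 7.39, 7.67 and 7.42 CPM in Control libraries. That call was lost without any of 8 libraries, all but PDGF-BB replicate 3 (0.0552 to 0.155). With PTUPB it had 9.09, 7.27 and 7.32 CPM and was not called (-0.51 ± 0.20, adjusted p = 0.105). Parp9 and Parp14, ADP-ribosyltransferases, were not called in either comparison, at averages of 63.4 ± 2.48 and 68.0 ± 1.78 CPM with PDGF-BB+PTUPB, 64.4 ± 9.71 and 81.0 ± 11.9 CPM with PDGF-BB and 57.5 ± 2.71 and 66.5 ± 7.49 CPM in Control libraries (SD, n = 3). Without PDGF-BB replicate 3, Parp9 (edgeR adjusted p = 0.0179) and Parp14 (0.0108) were called higher with PDGF-BB, and Parp14 (0.0287) and Dtx3l (0.027) were called lower with PTUPB.

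Trim25, a ligase that activates RIG-I, had a log2 difference of 0.02 ± 0.10 with PDGF-BB and -0.30 ± 0.10 with PTUPB (edgeR adjusted p = 0.915 and 0.0615). Its PDGF-BB+PTUPB libraries, at 28.0, 28.7 and 26.9 CPM, lay below all PDGF-BB libraries (32.1, 36 and 34.9 CPM) and all Control libraries (35.5, 29.4 and 37.1 CPM). Without Control replicate 2 Trim25 was called lower with PTUPB against PDGF-BB (0.0224) and against Control (0.049). Rnf213, a very large ubiquitin ligase, averaged 43.2 ± 5.94 CPM with PDGF-BB+PTUPB, 43.3 ± 3.69 CPM with PDGF-BB and 54.0 ± 13.3 CPM in Control libraries, and was not called (edgeR adjusted p = 0.179 for PDGF-BB and 0.996 for PTUPB). Without Control replicate 2 its adjusted p for PDGF-BB was 0.0204. Herc6, an Isg15 ligase in mice, had 58 counts over the PDGF-BB+PTUPB group, 96 over the PDGF-BB group and 72 over the Control group, below the filter.

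Cxcl10, the chemokine that draws Cxcr3-bearing T cells, had 2.25, 2.40 and 2.29 CPM with PDGF-BB+PTUPB, 12.2, 16.4 and 10.6 CPM with PDGF-BB and 1.34, 2.20 and 2.85 CPM in Control libraries. The PDGF-BB values stood well clear of the others, and the PDGF-BB+PTUPB values fell inside the Control range. Cxcl10 rose 6.08-fold with PDGF-BB (2.60 ± 0.26, edgeR adjusted p = 7.03e-05) and was 5.63-fold lower with PTUPB (-2.49 ± 0.26, adjusted p = 0.000576). Lgals3bp, a secreted glycoprotein, averaged 279 ± 6.49, 313 ± 24.9 and 282 ± 25.3 CPM in PDGF-BB+PTUPB, PDGF-BB and Control libraries (SD, n = 3) and was not called in either comparison (adjusted p = 0.202 and 0.209). The Cxcl10 window (RefSeq, GRCr8) is shown because its ISRE match (capitals) was the farthest from the start among members.
Cxcl10 chr14:15988816-15989115 plus strand: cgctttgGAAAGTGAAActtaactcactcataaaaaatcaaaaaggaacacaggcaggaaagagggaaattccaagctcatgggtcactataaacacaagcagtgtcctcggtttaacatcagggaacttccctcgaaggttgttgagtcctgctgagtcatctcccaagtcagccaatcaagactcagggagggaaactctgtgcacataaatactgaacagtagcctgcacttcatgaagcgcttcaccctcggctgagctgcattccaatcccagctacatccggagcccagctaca

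Guanylate-binding proteins are GTPases that coat and break open vacuoles holding pathogens. Both members rose with PDGF-BB, as did 17.3% of all genes tested. Gbp2 had 50.6, 51.3 and 50.4 CPM with PDGF-BB+PTUPB, 64.0, 61.3 and 65.1 CPM with PDGF-BB and 40.1, 38.5 and 44.3 CPM in Control libraries. The groups formed 3 separate levels, with PDGF-BB+PTUPB between the others. Gbp2 rose by 0.63 ± 0.08 (edgeR adjusted p = 0.000255) with PDGF-BB and fell by 0.32 ± 0.08 (adjusted p = 0.0188) with PTUPB, a fall lost without any PDGF-BB+PTUPB library or PDGF-BB replicate 1 (0.0562 to 0.0718). Gbp5 averaged 14.0 ± 0.585 CPM with PDGF-BB+PTUPB, 19.4 ± 4.30 CPM with PDGF-BB and 11.6 ± 0.917 CPM in Control libraries (SD, n = 3). Its rise was 0.75 ± 0.15 (edgeR adjusted p = 0.00451), and its difference with PTUPB was -0.47 ± 0.15 (adjusted p = 0.0575, or 0.00987 without PDGF-BB replicate 3). Gbp genes are a family of similar sequence, so some reads may be shared.

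Of the 6 remaining targets, Ifi44, Rtp4, Ifi35 and Sp110 rose with PDGF-BB, and Ifi44 and Rtp4 were lower with PTUPB. Beside them, 17.3% of all genes were higher with PDGF-BB and 10.0% lower with PTUPB. Ifi44, an antiproliferative interferon-induced protein, had 15.8, 16.2 and 17.7 CPM with PDGF-BB+PTUPB, 25.3, 25.0 and 25.2 CPM with PDGF-BB and 13.5, 14.6 and 15.2 CPM in Control libraries. Rtp4, a chaperone of receptor traffic, had 3.56, 3.31 and 3.18 CPM with PDGF-BB+PTUPB, 7.84, 8.55 and 8.98 CPM with PDGF-BB and 2.69, 4.58 and 4.51 CPM in Control libraries. Neither gene's PDGF-BB values overlapped those of another group. Ifi44 rose by 0.80 ± 0.09 (edgeR adjusted p = 0.000151) and fell by 0.61 ± 0.09 with PTUPB (adjusted p = 0.00237). Rtp4 rose by 1.10 ± 0.21 (edgeR adjusted p = 0.00267) and fell by 1.33 ± 0.21 with PTUPB (adjusted p = 0.00286).

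Ifi35, an interferon-induced leucine zipper protein, had nearly equal means in PDGF-BB+PTUPB and PDGF-BB libraries. It had 19.6, 19.5 and 19.2 CPM with PDGF-BB+PTUPB, 16.5, 19.8 and 22.0 CPM with PDGF-BB and 14.3, 14.7 and 14.7 CPM in Control libraries. Its log2 fold change was 0.41 ± 0.11 for PDGF-BB against Control (edgeR adjusted p = 0.0168) and 0.00 ± 0.11 for PDGF-BB+PTUPB against PDGF-BB (adjusted p = 0.993). Sp110, a nuclear body protein, rose by 0.39 ± 0.08 (edgeR adjusted p = 0.00501) and was at -0.19 ± 0.08 with PTUPB (adjusted p = 0.139). Ifi27 and Xaf1, linked to mitochondria and cell death, were not called in any comparison, at 144 ± 13.9 and 2.44 ± 0.355 CPM with PDGF-BB+PTUPB, 147 ± 13.8 and 2.99 ± 0.417 CPM with PDGF-BB and 131 ± 17.8 and 2.74 ± 0.218 CPM in Control libraries (SD, n = 3).

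**Figure D3:**
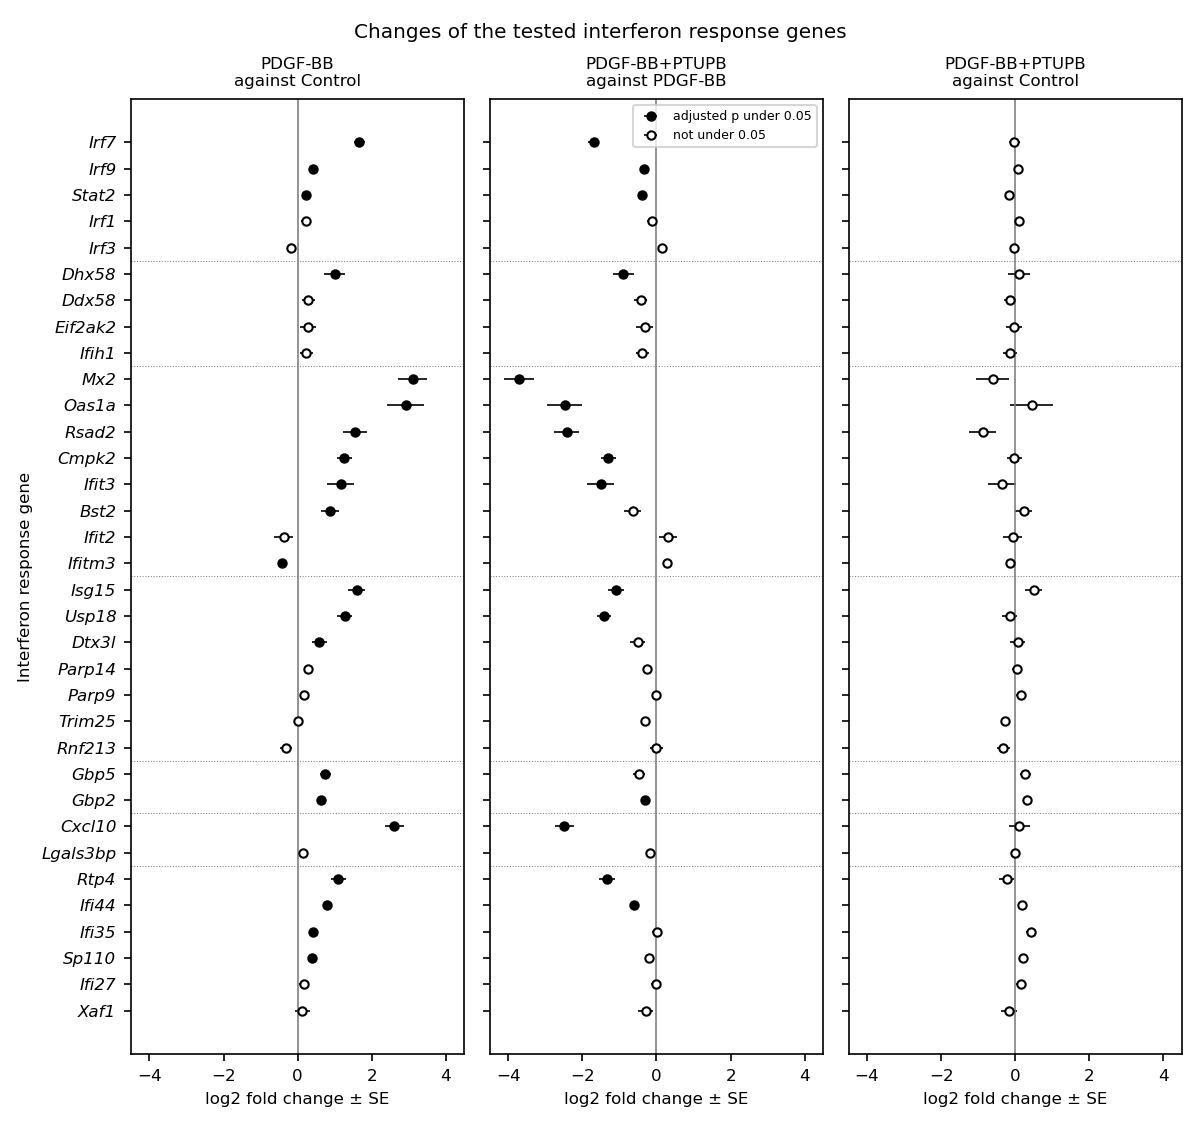
Dots are log2 fold changes and bars their SE (edgeR) for the 34 tested genes in 3 comparisons, filled where the adjusted p is under 0.05. The first panel has 20 filled dots right of 0 and 1 left, the second 15 left of 0, and the third none.

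Mx1 and Oasl lay below the expression filter. Mx1 had 1, 2 and 7 counts with PDGF-BB+PTUPB, 29, 25 and 34 counts with PDGF-BB and 3, 11 and 10 counts in Control libraries. Oasl, a relative of the Oas enzymes that enhances RIG-I signalling, had 7, 23 and 7 counts with PDGF-BB+PTUPB, 45, 30 and 61 counts with PDGF-BB and 11, 23 and 22 counts in Control libraries. In both genes all PDGF-BB libraries were the highest. In a fit with no filter Mx1 rose by 2.07 ± 0.52 with PDGF-BB (edgeR adjusted p = 0.0107) and fell by 3.22 ± 0.59 with PTUPB (adjusted p = 0.00315). In the same fit Oasl rose by 1.48 ± 0.41 (adjusted p = 0.0189) and fell by 2.05 ± 0.43 (adjusted p = 0.0073). Oas2 had 5 counts over the PDGF-BB group and 0 over each of the others, and was not called in that fit. Herc6, Zbp1 and Ifit1 were not called in it either. The same fit no longer called the rise of Stat2 (edgeR adjusted p = 0.0709), the fall of Irf9 (0.0576) or the fall of Dhx58 (0.0662). Of 40 members in it, 21 were higher and 1 lower with PDGF-BB, and 15 were lower and 0 higher with PTUPB.

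Levels compared per gene length differed widely among members. In Control libraries mean FPKM ran between 0.267 for Oas1a and 604 for Ifitm3 among tested members, with Ifi27 at 161 and Lgals3bp at 126. The 15 genes called in both comparisons had Control means between 0.267 FPKM for Oas1a and 16.1 FPKM for Gbp2. With PDGF-BB, Mx2 averaged 4.70 FPKM and Cxcl10 11.9 FPKM, against 0.517 and 1.84 FPKM in Control libraries.

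Set against Control, the PDGF-BB+PTUPB libraries showed no called member. Of 34 tested members 0 were higher and 0 lower (edgeR), while 1.89% and 0.313% of all genes were. These counts lie near the shares over all genes and give no result particular to the members. At an unadjusted p under 0.05 there were 5, namely Gbp2, Ifi35, Sp110, Rsad2 and Trim25, and DESeq2 and limma each called 1, Gbp2, higher. Gbp2 differed by 0.31 ± 0.08 (edgeR adjusted p = 0.091) and Ifi35 by 0.41 ± 0.11 (adjusted p = 0.107), and all PDGF-BB+PTUPB values of both lay above the Control values. Without PDGF-BB replicate 3, Ifi35 was called (adjusted p = 0.0438). The median log2 fold change was -0.02, beside -0.01 over all genes, and the groups did not overlap for 6 higher and 2 lower members (12.1% and 9.38% of all genes).

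A missed threshold does not show equal levels, and the width of the interval differs by gene. The 95% interval of the log2 difference between PDGF-BB+PTUPB and Control ran between -0.36 and 0.32 for Irf7, between -0.13 and 0.29 for Irf9 and between -0.02 and 1.02 for Isg15. For the low genes Mx2, Oas1a and Rsad2 it ran between -1.62 and 0.40, -0.83 and 1.70, and -1.70 and -0.06.

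Of 11 interferon genes with a row, 10 were not detectable at this depth. Ifnb1, Ifna1, Ifna2, Ifna4, Ifna5, Ifna11, Ifnk, Ifng, Ifnl1 and Ifnl3 had 0 counts in all 9 libraries, which allows up to 0.236 CPM in the shallowest library (3 counts, counting error only). Ifne had 3 counts over the PDGF-BB+PTUPB group, 2 over the PDGF-BB group and 7 over the Control group. RNA was taken at a single time, after 24 h, so earlier levels were not measured.

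Some receptor and kinase genes of the pathway fell with PDGF-BB. Of 6 tested receptor genes 0 rose and 3 fell with PDGF-BB (Ifnar1, Ifnar2 and Ifngr1), and of 8 tested signalling genes 0 rose and 3 fell (Jak1, Jak2 and Socs3), where 17.3% of all genes were higher and 15.8% lower. With PTUPB, 1 of the 6 and 2 of the 8 rose and 0 fell, where 8.28% of all genes were higher and 10.0% lower. Ifnar1, a chain of the type I receptor, had 175, 168 and 152 CPM with PDGF-BB+PTUPB, 145, 141 and 138 CPM with PDGF-BB and 183, 187 and 190 CPM in Control libraries. The 3 groups did not overlap. Ifnar1 fell by 0.40 ± 0.07 with PDGF-BB (edgeR adjusted p = 0.00197), and its difference with PTUPB was 0.23 ± 0.07 (adjusted p = 0.0509). That difference was called without PDGF-BB+PTUPB replicate 3 (0.0448) or Control replicate 2 (0.045). Ifnar2, the other chain, fell by 0.29 ± 0.10 (edgeR adjusted p = 0.0405), a call lost without any of 8 libraries, all but Control replicate 1 (0.0537 to 0.133). The Ifnar2 call was also lost with scaling by library totals in place of TMM (0.115).

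Ifngr1, a chain of the type II interferon receptor, had the largest change of the receptor genes. It had 310, 287 and 265 CPM with PDGF-BB+PTUPB, 177, 150 and 167 CPM with PDGF-BB and 288, 277 and 308 CPM in Control libraries. The PDGF-BB values lay far below both other groups, which overlapped. Ifngr1 fell by 0.82 ± 0.09 with PDGF-BB (edgeR adjusted p = 0.000103) and rose by 0.80 ± 0.09 with PTUPB (adjusted p = 0.00067).

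Jak1, the kinase shared by both receptors, fell by 0.48 ± 0.09 with PDGF-BB (edgeR adjusted p = 0.00276) and rose by 0.30 ± 0.09 with PTUPB (adjusted p = 0.0441), a rise lost without any of 7 libraries, all but Control replicates 1 and 2 (0.0511 to 0.148). Socs3, a feedback inhibitor of cytokine receptors, fell by 0.62 ± 0.15 (edgeR adjusted p = 0.0101) and rose by 0.51 ± 0.15 with PTUPB (adjusted p = 0.0398), a rise lost without any of 5 libraries: PDGF-BB+PTUPB replicates 1 and 3, PDGF-BB replicates 1 and 2 and Control replicate 3 (0.0582 to 0.15). Jak2 fell by 0.57 ± 0.17 (edgeR adjusted p = 0.0247), lost without any one Control library (0.0505 to 0.0561). With PTUPB its difference was 0.51 ± 0.17 (adjusted p = 0.0591, or 0.0256 without PDGF-BB replicate 3). With scaling by library totals in place of TMM, the rises of Jak1 and Socs3 with PTUPB were not called (edgeR adjusted p = 0.0635 and 0.0568). Tyk2, the other receptor kinase, was at 0.03 ± 0.09 with PDGF-BB (edgeR adjusted p = 0.853) and was not called.

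**Figure D4:**
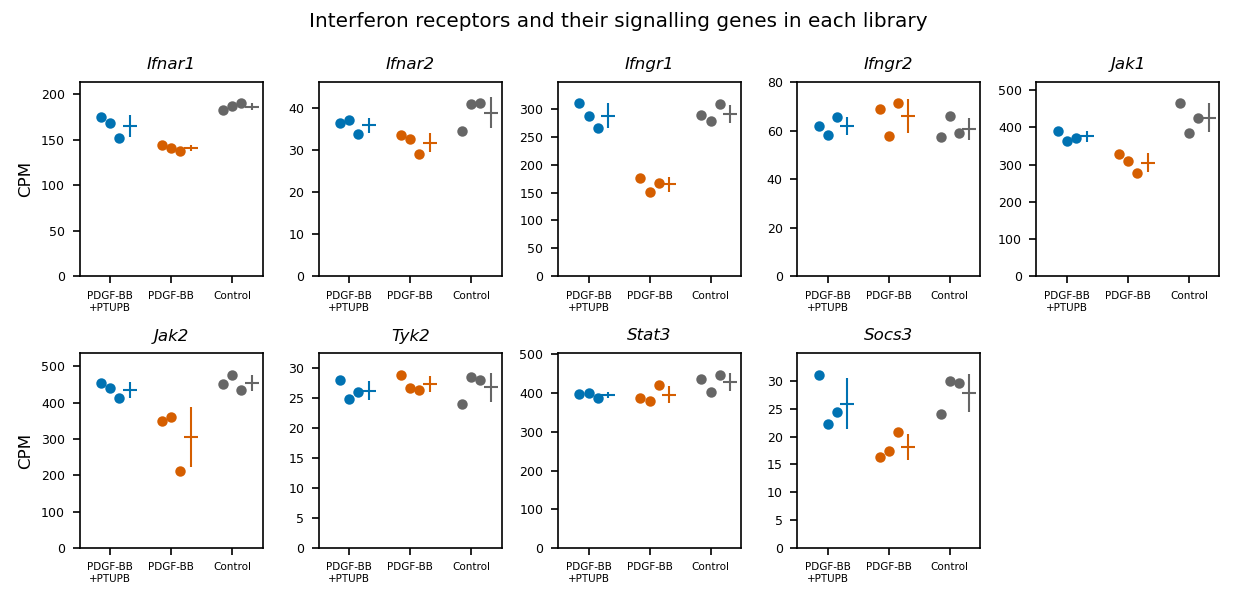
Each panel shows TMM-scaled CPM (axis from 0) of a receptor or signalling gene, with a point per library and, beside it, the mean and SD of the 3 libraries. Ifngr1 is lowest in the 3 PDGF-BB libraries, at 150 to 177 CPM, while Tyk2 overlaps across groups.

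Of 17 tested genes of nucleic acid sensing and its adaptors, 4 rose and 2 fell with PDGF-BB, shares of 23.5% and 11.8% that lie near the 17.3% and 15.8% of all genes. The risers were Rnaseh2a (0.72 ± 0.09, edgeR adjusted p = 0.000284), Rnaseh2b (0.53 ± 0.14, 0.0131) and Rnaseh2c (1.13 ± 0.20, 0.0021), the subunits of RNase H2 that remove ribonucleotides from DNA, and Cgas (0.99 ± 0.26, 0.0147), the DNA sensor, which had only 1.81 ± 0.105 CPM with PDGF-BB and 0.914 ± 0.196 CPM in Control libraries. The Cgas call was lost without Control replicate 3 (0.0576). Tlr4 (-0.81 ± 0.16, edgeR adjusted p = 0.00403) and Mavs (-0.25 ± 0.08, 0.0372), the mitochondrial adaptor of RIG-I, fell, but Mavs was lost without any one of the 9 libraries (0.0503 to 0.107). Mavs was also lost with scaling by library totals in place of TMM (0.121). With PTUPB, Sting1, Adar and Samhd1 were lower and 0 higher. That was 17.6% lower, where 10.0% of all genes were lower and 8.28% higher. Sting1, the adaptor of Cgas, fell by 0.60 ± 0.14 (edgeR adjusted p = 0.0184), lost without PDGF-BB+PTUPB replicate 1 (0.0814) or PDGF-BB replicate 3 (0.0509). Adar (-0.34 ± 0.11, adjusted p = 0.0486) was lost without any of 7 libraries, all but Control replicates 2 and 3, and Samhd1 (-0.77 ± 0.23, 0.0428) without any of 8, all but Control replicate 2. The highest adjusted p was 0.14 for Adar and 0.144 for Samhd1. Against Control, Rnaseh2a (0.44 ± 0.09, edgeR adjusted p = 0.0384) and Rnaseh2c (0.91 ± 0.20, 0.0488) stayed higher with PDGF-BB+PTUPB. The first call was lost without any of 7 libraries, all but PDGF-BB replicate 3 and Control replicate 1 (0.0672 to 0.201), and the second without any one of the 9 (0.0508 to 0.218).

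Among 5 other tested interferon regulatory factor genes, Irf8 fell with PDGF-BB (-0.62 ± 0.14, edgeR adjusted p = 0.00692) and Irf5 rose (0.42 ± 0.14, 0.0383). These shares of 20.0% each lie near the 15.8% lower and 17.3% higher of all genes, and 8.28% of all genes were higher with PTUPB. The Irf5 call was lost without any of 8 libraries, all but Control replicate 2 (0.0503 to 0.128). Irf2, a repressor of interferon targets, was higher with PTUPB (0.32 ± 0.09, edgeR adjusted p = 0.0303), lost without any PDGF-BB+PTUPB library, PDGF-BB replicate 2 or PDGF-BB replicate 3 (0.0646 to 0.117).

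Of 31 further tested interferon-induced genes, 15 rose and 0 fell with PDGF-BB, and 9 fell and 0 rose with PTUPB. Over all genes 17.3% were higher and 15.8% lower with PDGF-BB, and 8.28% were higher and 10.0% lower with PTUPB. Apol9a had the smallest p of these in both comparisons, with 11, 10.5 and 11 CPM in PDGF-BB+PTUPB, 21.8, 23.3 and 29.9 CPM in PDGF-BB and 6.80, 8.56 and 9.41 CPM in Control libraries. Its PDGF-BB values were the 3 highest, and its PDGF-BB+PTUPB values lay above the Control values. Apol9a rose by 1.59 ± 0.15 (edgeR adjusted p = 6.1e-05) and fell by 1.21 ± 0.15 with PTUPB (adjusted p = 0.00113). The 15 also held Tap1 (0.69 ± 0.09, edgeR adjusted p = 0.000242), a subunit of the peptide transporter, and the immunoproteasome subunits Psmb8 (0.74 ± 0.14, 0.00304) and Psmb9 (0.63 ± 0.15, 0.00846). With PTUPB, Tap1 (-0.44 ± 0.08, adjusted p = 0.00672) and Psmb9 (-0.73 ± 0.15, 0.00869) fell and Psmb8 was not called (-0.29 ± 0.14, 0.185). The immunity-related GTPase Irgm (0.53 ± 0.10 and -0.56 ± 0.10, edgeR adjusted p = 0.00299 and 0.00538) and the RNA helicase Mov10 (0.53 ± 0.10 and -0.49 ± 0.10, 0.00217 and 0.00714) rose with PDGF-BB and fell with PTUPB. Some calls among the 31 genes were lost when 1 library was left out. The falls with PTUPB of Oasl2 and Slfn2 were each lost without any of 5 libraries (edgeR adjusted p 0.0506 to 0.0941). That of Parp12 was lost without any of 8 (0.0517 to 0.165), and that of Igtp without PDGF-BB+PTUPB replicate 1 (0.0655). The rises of Ifi47 and Nmi with PDGF-BB were each lost without either of 2 libraries (0.0616 to 0.0703). The list of 31 genes was drawn up with earlier results of these data known and is not independent evidence of direction.

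Markers of other cell types were checked beside these changes. Leukocyte markers summed to 37.6 to 40.0 CPM in PDGF-BB+PTUPB, 28.0 to 30.2 CPM in PDGF-BB and 29.4 to 42.3 CPM in Control libraries, with Ptprc and Cd3e at 0 counts in every library. Of 3 tested leukocyte markers Lyz2 was lower with PDGF-BB, and Lyz2 and Cd14 were higher with PTUPB. Endothelial markers summed to at most 0.841, 0.595 and 1.57 CPM in PDGF-BB+PTUPB, PDGF-BB and Control libraries, with Cdh5, Kdr, Tie1, Cldn5 and Emcn at 0. Adventitial fibroblast markers summed to 4287 to 5149 CPM, 2588 to 3559 CPM and 4700 to 6747 CPM in the same order, and 5 of 7 tested fell with PDGF-BB and 4 rose with PTUPB. For comparison with these marker calls, 15.8% of all genes were lower with PDGF-BB and 8.28% higher with PTUPB. The part of the fibroblast markers in the interferon result was not tested. In bulk RNA, a change in the share of responding cells and a change in RNA per cell cannot be told apart.

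RefSeq promoter windows were found for 30 of the 40 members. None was found for Mx2, Oas2, Isg15, Ifit1, Ifit2, Usp18, Ddx58, Dhx58, Zbp1 and Rtp4. Searched on both strands, the ISRE letters (GAAA, any 2 bases, GAAA) occurred in 18 of 30 member windows, against 3.92% of all 33469 windows of that length and 2.98% of windows of tested genes. A stricter form with C as the first spacer base, which is contained in the first, occurred in 7 members (23.3%), against 0.813% of all windows. The GAS letters TTCNNNGAA, an element of interferon gamma targets, occurred in 6 members (20.0%), against 8.87% of all windows.

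Whether the match was more frequent among members that moved was not tested. It was present in 12 of 16 windows of members called with PDGF-BB, in 7 of 10 of those called in both comparisons and in 6 of 11 of the tested members called in neither. Irf9 and Stat2, which were called, held none, and Ifih1, Xaf1 and Lgals3bp, which were not, held one. Of 22 matches 15 began within 100 bases before the start.

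One match per member is printed below, read 5′ to 3′ on the strand where the ISRE (capitals) begins with GAAA, and taken as the match nearest the start, with 10 flanking bases where the window allowed. Members called with PDGF-BB come first, then Ifitm3, which was lower, then those not called. They are shown because the variable central bases and the flanks differ between members that share the core (RefSeq, GRCr8, strand as printed).
Irf7 chr1:205800073-205800102 plus strand: tgcgtctcggGAAAATGAAAcctaaactgt
Oas1a chr12:41330421-41330450 plus strand: tcgggaaatgGAAACTGAAAatcttgttcc
Ifit3 chr1:241527272-241527301 minus strand: gtggaaactaGAAACTGAAAcagacttaaa
Rsad2 chr6:48788248-48788277 plus strand: tctgttttctGAAAATGAAAgttgaaccag
Cxcl10 chr14:15988816-15988842 plus strand: cgctttgGAAAGTGAAActtaactcac
Bst2 chr16:18255073-18255102 minus strand: ccaggaaaatGAAACTGAAAggtggcagca
Ifi44 chr2:243303847-243303876 plus strand: cctgggaaatGAAACTGAAActcagtgtgc
Dtx3l chr11:78320225-78320254 plus strand: cccgggaaacGAAACTGAAActttgcctct
Gbp2 chr2:234005686-234005715 minus strand: ttaagacaatGAAAGTGAAActaaaaaact
Gbp5 chr2:233910933-233910962 minus strand: cctctaaactGAAATTGAAActacacaagt
Sp110 chr9:93670698-93670727 plus strand: ttcaagaaaaGAAAACGAAAgtgatctcag
Ifitm3 chr1:205541783-205541812 minus strand: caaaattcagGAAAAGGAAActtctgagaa
Ifih1 chr3:67684008-67684037 minus strand: gaagagaatcGAAACAGAAAccgatgtgtg
Eif2ak2 chr6:21941128-21941157 plus strand: agtccgccggGAAAACGAAAcagagagaac
Parp14 chr11:78408048-78408077 plus strand: tccaggaaatGAAAGTGAAAgaagtaagtt
Lgals3bp chr10:104127879-104127908 minus strand: gtgttttctgGAAATCGAAActagactagg
Ifi27 chr6:128355218-128355247 plus strand: gagagctgggGAAATGGAAActtacctcat
Xaf1 chr10:57415914-57415943 plus strand: tgtgtgcaaaGAAACAGAAActccaccgaa

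The strict core GAAACTGAAA was printed for Oas1a, Ifit3, Bst2, Ifi44 and Dtx3l, all called higher with PDGF-BB, and GAAACAGAAA for Ifih1 and Xaf1, both not called. The calls of Ifit3, Bst2 and Dtx3l were each lost without some single library. Ifih1 was called higher without PDGF-BB replicate 3 (edgeR adjusted p = 0.0271). Whether the core differs with the call was not tested. A match is a description of letters, not of a bound site.

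**Figure D5:**
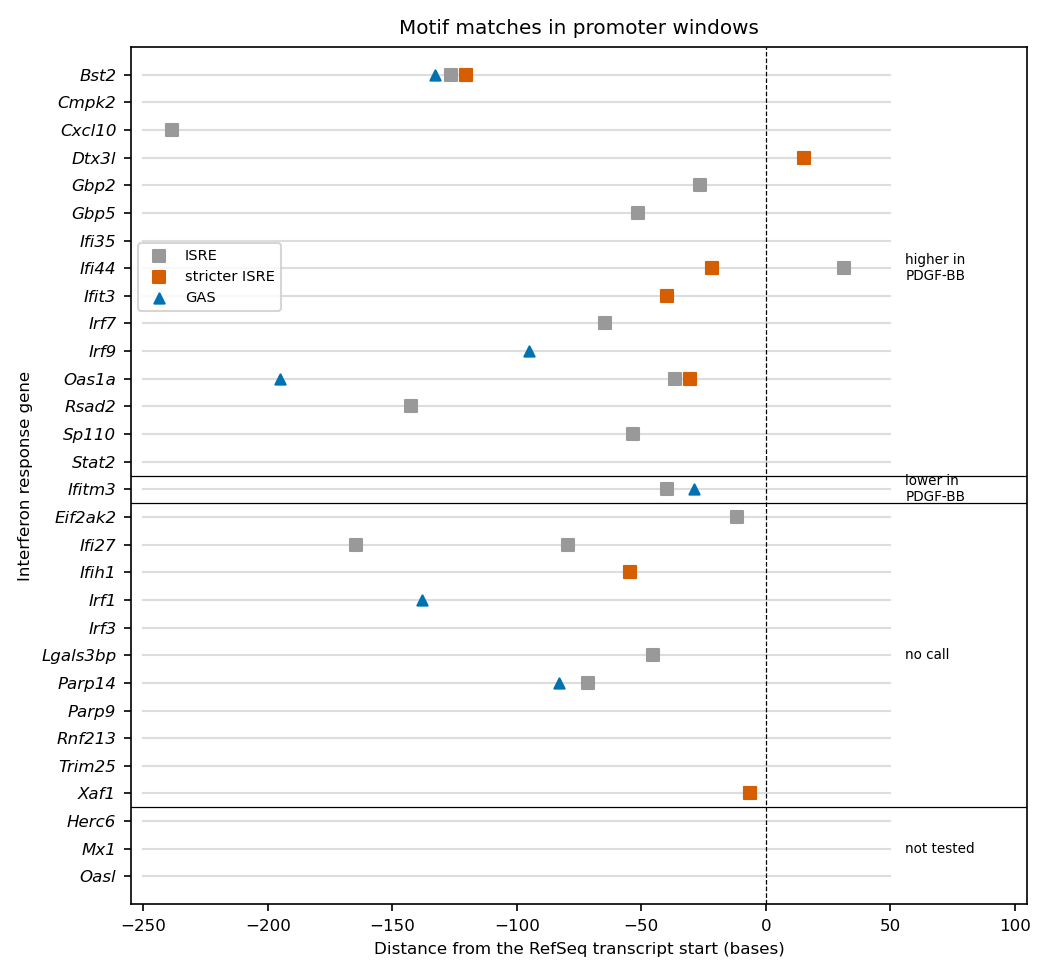
Rows are the 30 members with a promoter window, grouped by their call for PDGF-BB against Control, and the axis is the distance in bases from the RefSeq transcript start. Squares mark ISRE matches (orange for the stricter form) and triangles GAS matches, and 15 of the 22 ISRE matches begin within 100 bases before the start.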

How the data were processed

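RNA-seq of polyadenylated RNA was analysed in 9 libraries, 3 per group as the labels give them. The authors deposited 1 table of 32623 genes with an estimated count and an FPKM value per gene and library. Per the submitters' processing notes the tools included cutadapt 1.9.1, HISAT2 2.0.1 and HTSeq 0.6.1. The notes name a mouse build although all 32623 identifiers are rat Ensembl genes, so no coordinates of the table are printed, and strand use is not given in the sources used here. The deposited counts of 978 genes were not whole and were rounded. The deposited FPKM values were recomputed from counts and lengths within 0.006 for 100% of values.

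The 11197 genes that reached an FPKM of 1 in 3 or more libraries were tested with edgeR 4.0.16 in R 4.3.3: TMM scaling, 1 quasi-likelihood fit over 9 libraries with group as the only term, 6 residual degrees of freedom and Benjamini-Hochberg adjustment over all genes tested. A gene was called at an adjusted p under 0.05. The steps were tested on simulated data. Alternatives used limma 3.58.1, DESeq2 1.42.0, other scalings and filters, a replicate block and leaving out libraries. Genes named are all members with a row and those called or central to the pathway list. The members and lists were chosen with earlier results of these data known. The 95% intervals of log2 differences come from the edgeR fit and rest on the spread between libraries, and limits on counts of 0 cover counting error only. Some genes of the lists are not reported here.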

Additional observations from a re-analysis of the deposited data

How the results depend on the processing

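Over 19 alternatives per result, 5402 of 5742 single-gene values kept their side of the threshold, 208 lost a call and 132 gained one. The sign differed for 249 values, of which 0 were called in either fit. Members called higher with PDGF-BB numbered 15 to 22 when 1 library was left out and 15 to 23 over all alternatives. Members called lower with PTUPB numbered 11 to 18 and 11 to 22. With 1 library left out, 0 to 2 members were lower with PDGF-BB, 0 to 1 were higher with PTUPB against PDGF-BB, and against Control 0 to 1 were higher and 0 to 1 lower with PDGF-BB+PTUPB. With 1 library left out, the median log2 fold change ranged over 0.38 to 0.48 for PDGF-BB against Control. For PDGF-BB+PTUPB it ranged over -0.48 to -0.32 against PDGF-BB and over -0.035 to 0.042 against Control. Of 21 calls with PDGF-BB 15 were kept without each library in turn, as were 11 of 15 with PTUPB.

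Leaving out Control replicate 2 and PDGF-BB replicate 3 together gave 23 higher and 2 lower with PDGF-BB, 22 lower and 1 higher with PTUPB (median -0.48), and 2 higher and 2 lower for PDGF-BB+PTUPB against Control. The median for PDGF-BB against Control was 0.48 with library totals, 0.47 with limma on log2(FPKM + 0.1) and 0.59 with no filter, which adds low genes, and the median with PTUPB was -0.45 with no filter. For PDGF-BB+PTUPB against Control, 1 member was higher with DESeq2, 1 with limma on log2(FPKM + 1) and 1 with limma on log2(FPKM + 0.1). Of all calls, 65.4% were higher with PDGF-BB and 33.9% with PTUPB under limma on log2(FPKM + 1). The stricter ISRE was found in 7 member windows in place of 18, as it is contained in the looser one. The cause of the other shifts was not tested.

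With the replicate number as a block, 17 members were higher and 1 lower with PDGF-BB, and 13 were lower and 0 higher with PTUPB. Deviations of same-numbered libraries correlated between -0.285 and 0.194, and not every library correlated best with its own number. With 3 libraries per group this cannot settle whether the numbers pair the libraries, which the labels do not state. Precision was limited by 3 libraries per group and, for members under the filter, by counts of at most 61 per library.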
